A study of Homo sapiens with 6 samples.

Results

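Immediate early genes are genes that a cell transcribes within minutes of a stimulus, from factors already present and without new protein synthesis. Here 10 of them were followed through inhibition of phosphatidylinositol 4-kinase alpha in HEK293 cells: IER2, IER3, IER5, IER5L, NR4A1, NR4A2, NR4A3, PHLDA1, ARC and C11orf96. They were taken by symbol from the 63140 genes of the deposited count table, and all 10 were found once and passed the filter on low counts. They were chosen by name and by their log2 fold changes between GSK-A1 and DMSO, which were already known, so their levels and changes in that contrast are given as a description and support nothing by themselves.

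HEK293 cells are a widely used human line that was established from embryonic kidney. Cultures grown to confluence in medium with serum were given 100 nM GSK-A1 for 24 h, while controls were given its solvent, dimethyl sulfoxide (DMSO), with 3 libraries per group. GSK-A1 inhibits the product of PI4KA, the kinase that makes phosphatidylinositol 4-phosphate at the plasma membrane. The samples are labelled as biological replicates of 1 cell line, and a single dose and a single time were measured.

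As background, early genes are switched on through several routes. ERK signalling acts on serum response factor and its partners at the CArG box, while cAMP and calcium act on CREB at the cAMP response element (CRE). Many of the mRNAs are short-lived, in many cases because AU-rich elements in the 3′ UTR recruit decay factors. A level depends on both transcription and decay. The NR4A genes encode orphan nuclear receptors that bind DNA without a known obligate ligand. The IER genes share a name for their kinetics, and IER5L is a paralog of IER5.

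The libraries held 33040178 to 47777233 counts. GSK-A1 replicate 2 stood apart, with a chi-square statistic per gene of 10.98 and 15.5 against the other GSK-A1 libraries, where GSK-A1 replicates 1 and 3 gave 2.88. Its mitochondrial share was 4.04% against 5.12% to 5.68% elsewhere, so values without it are given below. PI4KA mRNA stood at 184.6 ± 5.1 CPM with DMSO and 179.0 ± 7.2 CPM after GSK-A1 (n = 3, SD), and an inhibitor of the protein need not change it. Of 8 markers of HEK293 cells, NEFL was at 715 CPM and VIM at 1085 CPM with DMSO while NEFM was at 0.14 CPM. KRT8, KRT18, CDH2, LHX1 and PAX2 were at 147, 110, 93.9, 15.3 and 2.71 CPM. Of the 7 tested, 2 were called higher with GSK-A1 and 1 lower (edgeR adjusted p under 0.05), beside 12.0% and 10.9% of all genes tested. On the log2 scale VIM rose by 0.17 and KRT8 by 0.11, and PAX2 changed by -0.43. Summed markers of blood, endothelium and hepatocytes reached at most 0.286 CPM in any library. The 4 fibroblast markers summed to 18.7 to 20.6 CPM with DMSO and 12.4 to 14.5 CPM with GSK-A1, and their part in the results was not tested. Among them COL3A1 fell from 9.69 ± 0.27 to 5.50 ± 0.28 CPM (SD, n = 3; log2 fold change -0.81, edgeR adjusted p = 3.55e-06) and PDGFRA by 0.45 on the log2 scale (edgeR adjusted p = 0.0333). COL1A1 (-0.14) did not pass and DCN was too low to test. In bulk RNA, a change in the share of cells that express a gene and a change in RNA per cell cannot be told apart.

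GSK-A1 libraries held more mRNA of most of these genes, but by very unequal amounts. C11orf96 was 4.83-fold and ARC 3.03-fold higher in mean CPM (counts scaled to the TMM-adjusted library total). A middle group lay between 1.14-fold and 1.41-fold and comprised NR4A1, IER3, IER2, IER5, NR4A2 and NR4A3. IER5L and PHLDA1 hardly differed. The median log2 fold change was 0.25 over the 10 genes and -0.01 over all 16754 genes tested.

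In the fit across all genes (edgeR quasi-likelihood, adjusted p under 0.05), 7 of the 10 were past the threshold as higher, beside 12.0% of all genes tested, and 0 as lower, beside 10.9%. At an unadjusted p under 0.05 there were also 0 lower, as there were by DESeq2 and limma-voom. These 7 were IER2, IER3, IER5, NR4A1, NR4A2, ARC and C11orf96. All 3 GSK-A1 libraries lay above all 3 DMSO libraries in 8 of the 10, NR4A3 being the additional one, and the same held for 20.2% of all genes tested. In 0 of the 10 did all GSK-A1 libraries lie under all DMSO libraries, beside 20.4% of all genes. Because the genes were listed with this contrast in view, nothing is read from these shares.

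**Figure D1:**
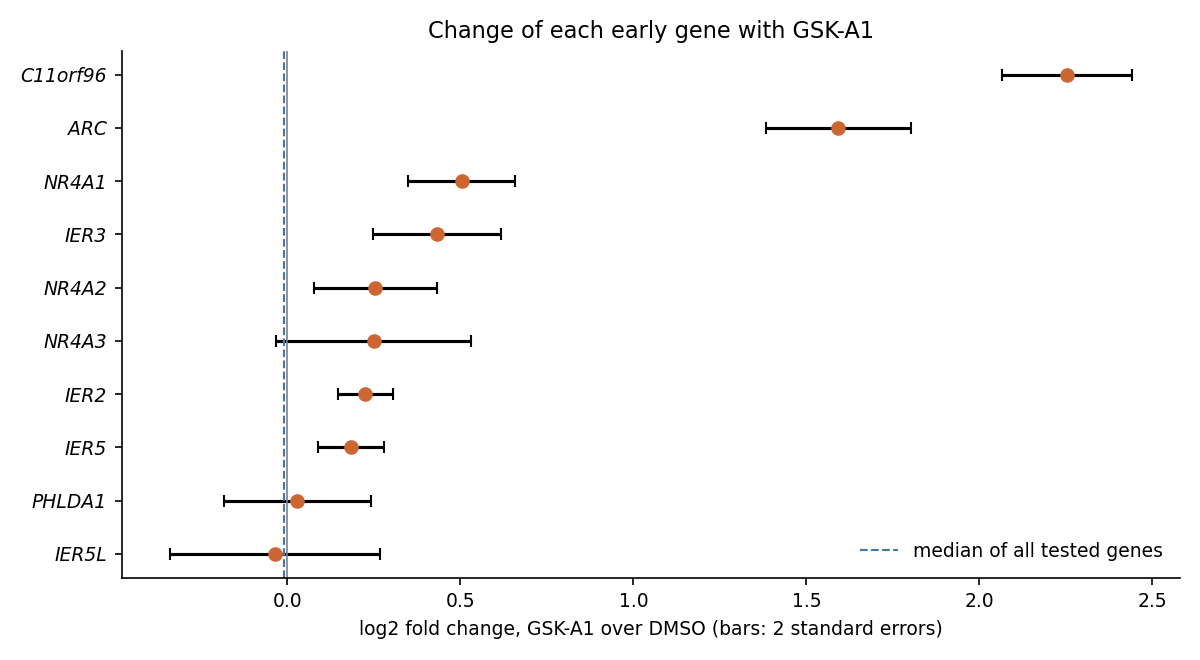
Log2 fold change of each gene, GSK-A1 over DMSO, from the edgeR fit of 3 against 3 libraries. Points are estimates, bars are 2 standard errors, and the dashed line is the median of all tested genes at -0.01. C11orf96 (2.25) and ARC (1.59) lie far to the right of the other 8.

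IER2 encodes a small nuclear protein induced by serum and growth factors. The gene lies on chromosome 19 (GRCh38, 13150415 to 13154908, plus strand). Its level was 57.0, 58.4 and 58.3 CPM in DMSO replicates 1 to 3 and 67.3, 67.5 and 68.2 CPM in GSK-A1 replicates 1 to 3. The groups did not overlap, and the spread within each was the smallest among the 10 genes in proportion to the mean, with a coefficient of variation of 1.31% and 0.68%. The log2 fold change was 0.22 ± 0.04 (SE), a modest difference seen with high precision.

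IER5, a nuclear protein that has been linked to heat shock factor 1 and protein phosphatase 2A, is a single-exon gene on chromosome 1 (181088712 to 181092899, plus strand). It stood at 77.2, 82.1 and 75.1 CPM with DMSO and at 83.6, 93.6 and 89.5 CPM with GSK-A1. The groups came close, since the lowest GSK-A1 library was 1.02 times the highest DMSO library. Its log2 fold change was 0.18 ± 0.05 (SE). It was no longer past the threshold without DMSO replicate 1 (0.18, edgeR adjusted p = 0.0663) or DMSO replicate 3 (0.16, edgeR adjusted p = 0.0803).

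IER2 and IER5 had almost the same level per joined exonic length (66.8 and 66.1 TPM with DMSO), a closeness that depends on the length used. Their differences were similarly small, so the 250 bases before their RefSeq start sites are set side by side (GRCh38.p14, chr19:13150161-13150410 and chr1:181088450-181088699, both plus strand). Capitals mark CRE cores, TGACG or CGTCA on either strand.

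IER2: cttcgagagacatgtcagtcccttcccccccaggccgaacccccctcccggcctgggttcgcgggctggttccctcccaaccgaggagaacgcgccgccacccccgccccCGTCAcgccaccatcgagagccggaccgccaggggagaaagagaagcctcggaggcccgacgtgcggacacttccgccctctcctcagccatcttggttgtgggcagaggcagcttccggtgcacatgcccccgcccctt
IER5: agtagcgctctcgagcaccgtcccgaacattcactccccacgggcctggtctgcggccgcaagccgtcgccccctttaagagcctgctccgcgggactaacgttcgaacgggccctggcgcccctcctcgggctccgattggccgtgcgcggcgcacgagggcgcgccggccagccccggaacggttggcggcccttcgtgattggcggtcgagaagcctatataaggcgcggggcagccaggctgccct

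The IER2 window held 1 such core, at position -140 from the start site, and a match to the ETS site CCGGAAG or CTTCCGG at -27. The IER5 window held neither. CRE cores occurred in 21.2% of the 35116 windows of the same length in the table and this ETS motif in 8.52%. Neither window matched the CArG box, which 1.16% of all windows did. A match or its absence in these letters says nothing about binding, and no binding was measured.

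IER3, an early gene induced by many stresses whose product modulates cell survival and ERK signalling, lies on chromosome 6 (30743199 to 30744554, minus strand). It stood at 4.63, 4.46 and 4.65 CPM with DMSO and at 5.81, 6.80 and 6.02 CPM with GSK-A1. Every GSK-A1 library was at least 1.25 times the highest DMSO library. The log2 fold change was 0.43 ± 0.09 (SE), and 0.37 without GSK-A1 replicate 2. The antisense gene IER3-AS1 covered 26.5% of its exonic length, but held 0.65 CPM with DMSO and 0.50 CPM with GSK-A1.

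IER5L, the little-studied paralog of IER5 (chromosome 9, 129175552 to 129178262, minus strand), showed no such difference. Its libraries read 3.84, 3.03 and 2.47 CPM with DMSO and 2.68, 3.54 and 3.19 CPM with GSK-A1. The groups overlapped fully, and the coefficient of variation among DMSO libraries, 21.99%, was the widest of the 10 genes. Group means were 3.12 and 3.14 CPM, while the fitted log2 fold change was -0.04 ± 0.15 (SE), so its sign carries no information. An interval of 2 standard errors ran from -0.34 to 0.27 and includes the difference seen in IER5. The sign turned when DMSO replicate 1 (0.15) or GSK-A1 replicate 1 (0.09) was left out.

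**Figure D2:**
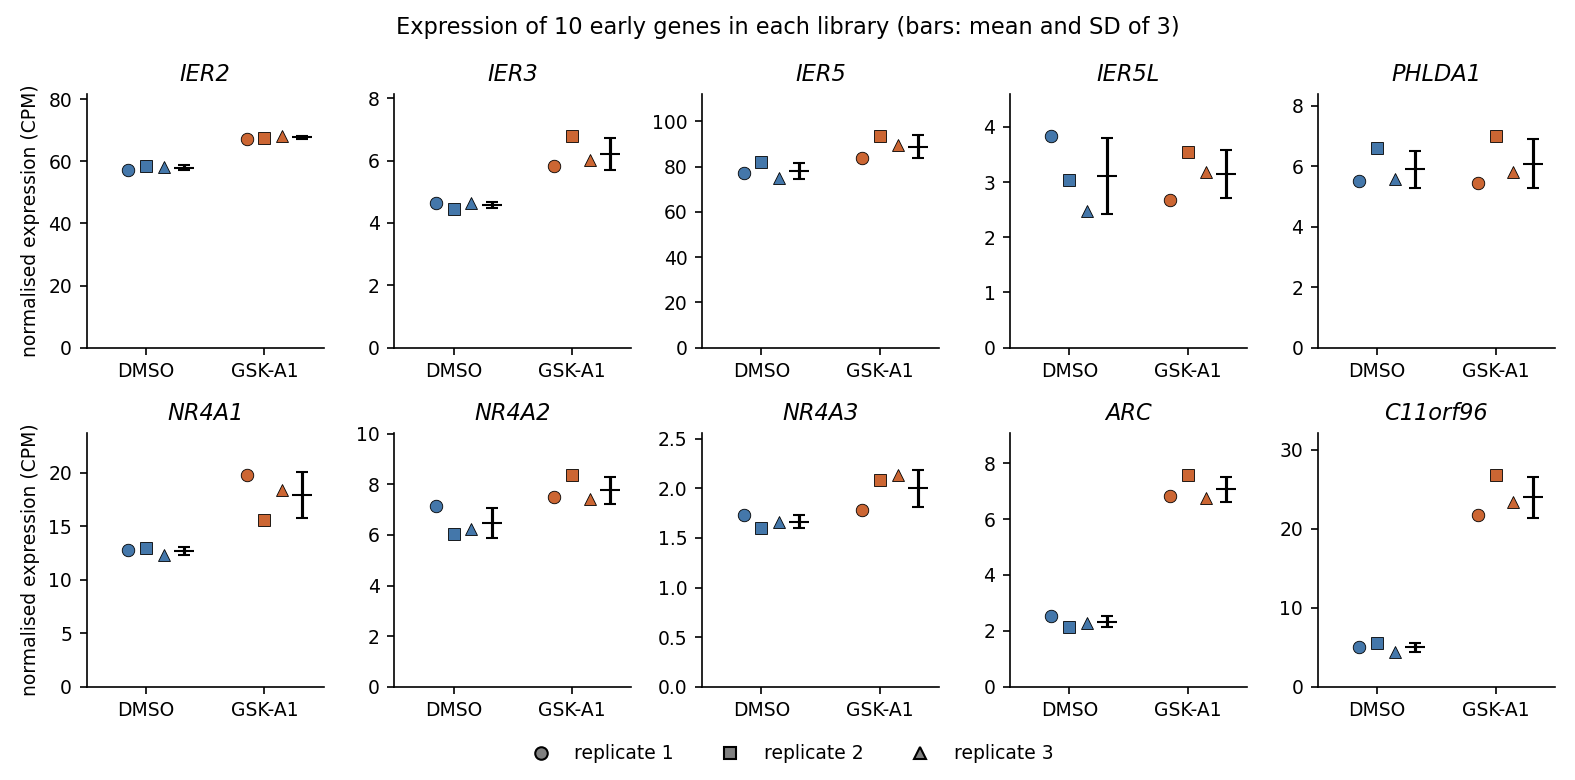
Normalised expression in CPM (vertical axes from 0) of the 10 genes in each DMSO and GSK-A1 library, with marker shape for the replicate number and bars for mean and SD of 3. In 8 panels all GSK-A1 points lie above all DMSO points, and in the panels of IER5L and PHLDA1 they overlap.

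NR4A1, also called NUR77, is the best known early gene of the nuclear receptor family and acts in survival, metabolism and inflammation. It lies on chromosome 12 (52022832 to 52059507, plus strand). It stood at 12.8, 12.97 and 12.3 CPM with DMSO and at 19.8, 15.6 and 18.4 CPM with GSK-A1. DMSO libraries were tight and GSK-A1 libraries were spread, with GSK-A1 replicate 2 the lowest of the 3. Its log2 fold change was 0.50 ± 0.08 (SE), and 0.60 without GSK-A1 replicate 2.

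NR4A2, or NURR1, is required for midbrain dopamine neurons and lies on chromosome 2 (156324432 to 156342348, minus strand). Its level was 7.13, 6.05 and 6.22 CPM with DMSO and 7.51, 8.38 and 7.41 CPM with GSK-A1. The lowest GSK-A1 library was 1.04 times the highest DMSO library. The log2 fold change was 0.25 ± 0.09 (SE) and the gene was only just past the threshold (edgeR adjusted p = 0.0490). It was past the threshold in 5 of 14 alternative analyses, with a highest adjusted p of 0.201 by edgeR without DMSO replicate 2.

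NR4A3, or NOR1 (chromosome 9, 99821855 to 99866891, plus strand), had few counts. It held 1.73, 1.60 and 1.66 CPM with DMSO and 1.78, 2.08 and 2.14 CPM with GSK-A1, from 55 to 83 counts per library. Groups did not overlap, but the gap was narrow, and the log2 fold change of 0.25 ± 0.14 (SE) was not past the threshold. An interval of 2 standard errors reached from -0.03 to 0.53 and includes the log2 fold change of NR4A1, so at this depth NR4A3 is not shown to differ from NR4A1. The interval of NR4A2, from 0.08 to 0.43, overlapped that of NR4A1, from 0.35 to 0.66, but did not include the NR4A1 estimate of 0.50. Differences between the receptors were not tested.

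The upstream windows of NR4A1 and NR4A3 are shown because the family is often described as CRE-driven (GRCh38.p14, chr12:52037465-52037714 and chr9:99821635-99821884, both plus strand). NR4A1 has 2 windows in the RefSeq table, and the one printed is the more downstream. Capitals mark the same CRE cores.

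NR4A1: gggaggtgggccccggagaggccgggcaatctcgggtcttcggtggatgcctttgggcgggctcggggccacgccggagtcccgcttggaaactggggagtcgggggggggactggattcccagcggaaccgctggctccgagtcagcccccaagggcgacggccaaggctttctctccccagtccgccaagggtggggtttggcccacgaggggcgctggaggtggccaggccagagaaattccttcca
NR4A3: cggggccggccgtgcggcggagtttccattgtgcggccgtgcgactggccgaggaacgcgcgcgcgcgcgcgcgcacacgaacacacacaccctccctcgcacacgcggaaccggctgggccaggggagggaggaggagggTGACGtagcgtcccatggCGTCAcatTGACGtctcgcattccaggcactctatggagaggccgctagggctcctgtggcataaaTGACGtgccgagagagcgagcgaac

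NR4A3 held 4 cores, at -109, -91, -83 and -25, and neither NR4A1 window held any. The more downstream NR4A1 window ends at 52037714 and the gene runs to 52059507. Sequence before any start site further downstream was not searched. Over all members, 6 had windows in the table, 7 windows in total, and 2 of these held a core. The full CRE TGACGTCA was in none of them and in 1.65% of all windows. No window was listed for IER3, NR4A2, ARC or C11orf96.

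The 3 NR4A genes were compared by exonic length, with the exons of all transcripts of a gene joined. That length was 7295 bases for NR4A1 against 2678 in its main transcript, and 3967 against 3472 for NR4A2. On this scale NR4A1 and NR4A2 were nearly level with DMSO and NR4A3 was a small remainder. The shares depend on the length used, and shares by main transcript were not computed. NR4A1 made up 47.9% ± 2.1 of their summed TPM (counts per exonic length, scaled to the same total in every library) with DMSO (SD, n = 3) and 51.8% ± 4.6 after GSK-A1. NR4A2 made up 44.8% ± 2.1 and 41.5% ± 4.1. The ranges of NR4A1 overlapped, from 45.8% to 49.998% with DMSO and from 46.7% to 55.5% with GSK-A1, with GSK-A1 replicate 2 at the low end. GSK-A1 replicates 1 and 3, at 55.5% and 53.3%, lay above every DMSO library, and GSK-A1 replicate 2, at 46.7%, lay within their range. The difference in means was 3.91 percentage points. Leaving out libraries in turn, which was added after the data were seen, gave 6.49 points without GSK-A1 replicate 2 and 2.07 points without GSK-A1 replicate 1.

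PHLDA1 encodes a protein with a pleckstrin homology-like domain that is induced by growth factors and bears on cell survival. It lies on chromosome 12 (76025447 to 76033932, minus strand). It held 5.51, 6.59 and 5.58 CPM with DMSO and 5.45, 7.00 and 5.80 CPM with GSK-A1. The groups overlapped, each with replicate 2 as its highest library. The log2 fold change was 0.03 ± 0.11 (SE), with 2 standard errors reaching from -0.18 to 0.24. Its sign turned under upper-quartile factors (-0.011), and when GSK-A1 replicate 2 (-0.074), DMSO replicate 1 (-0.026) or DMSO replicate 3 (-0.00063) was left out.

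The paralogs of PHLDA1, which are not among the 10, moved in opposite directions. PHLDA2, an imprinted gene known for restraining placental growth, rose by 1.26 ± 0.14 on the log2 scale (SE; edgeR adjusted p = 1.75e-05), from 1.32 ± 0.07 to 3.21 ± 0.40 CPM (SD, n = 3). PHLDA3, a p53 target that restrains AKT, fell from 32.7 ± 0.6 to 26.4 ± 1.7 CPM (-0.31 ± 0.05; edgeR adjusted p = 7.29e-04). Whether either differed from PHLDA1 was not tested.

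ARC encodes a protein derived from a retrotransposon Gag, which forms capsid-like particles and drives AMPA receptor uptake at synapses; its transcription is a classic marker of neuronal activity. The gene lies on chromosome 8 (142611044 to 142614472, minus strand). In these kidney-derived cells it stood at 2.54, 2.15 and 2.29 CPM with DMSO and at 6.84, 7.59 and 6.77 CPM with GSK-A1, from 76 to 122 and from 244 to 319 counts. The lowest GSK-A1 library was 2.66 times the highest DMSO library. The log2 fold change was 1.59 ± 0.10 (SE), the 21st highest of all tested genes, and lay between 1.53 and 1.67 in the 14 alternatives. No gene annotated in GENCODE 29 overlapped its exons.

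C11orf96, a short gene with 1 exon in its main transcript and a poorly known product, lies on chromosome 11 (43942505 to 43944338, plus strand). It stood at 4.96, 5.54 and 4.41 CPM with DMSO and at 21.7, 26.8 and 23.4 CPM with GSK-A1. Every GSK-A1 library was at least 3.92 times the highest DMSO library. The log2 fold change was 2.25 ± 0.09 (SE), the 7th highest of all tested genes, and ranged from 2.17 to 2.34 in the alternatives. The same-strand gene ENSG00000254409 covered 41.9% of its exonic length and read 0.12 CPM with DMSO and 0.11 CPM with GSK-A1. The opposite-strand gene ENSG00000244953 covered 30.1% and read 0 CPM in both groups. Few or no reads were thus counted for these genes. How reads in the shared bases were handled is not given, and whether some went uncounted was not tested. Antisense genes also overlapped exons of IER2, IER5L, NR4A1 and PHLDA1, and those in the count table read at most 0.067 CPM.

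**Figure D3:**
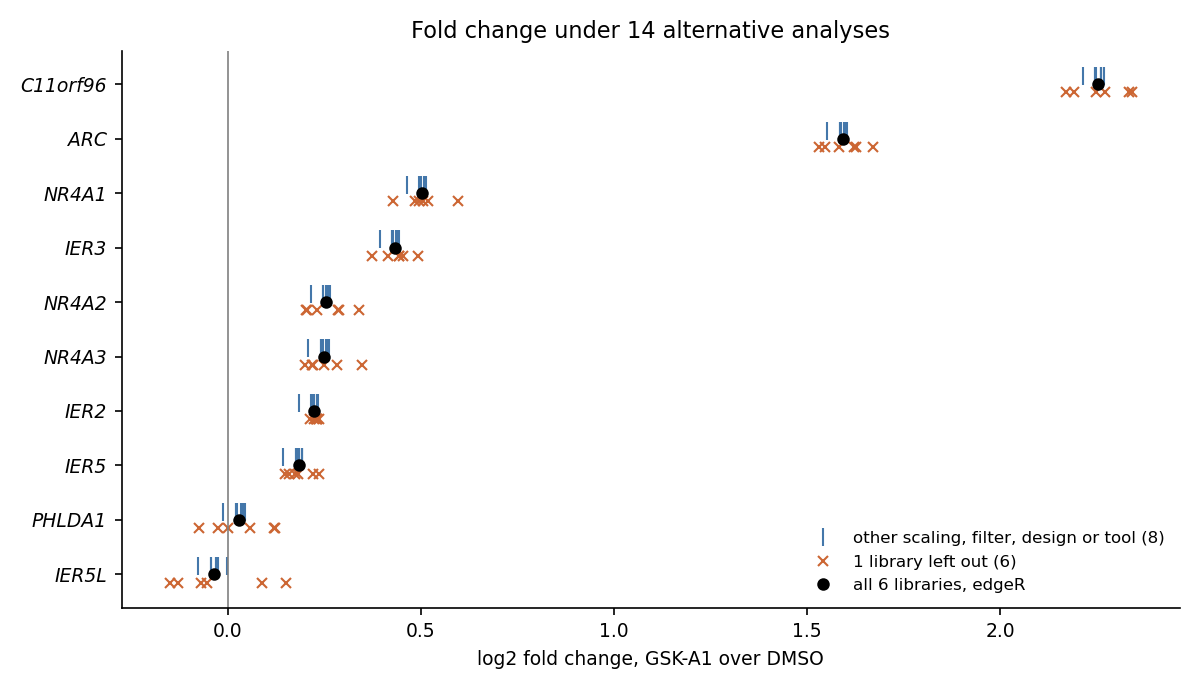
Log2 fold change of each gene in the fit with all 6 libraries (black), under 8 other scalings, filters, designs or tools (blue) and with 1 library left out (orange). IER5L and PHLDA1 spread across 0, and every other gene stays above 0 in all 14 alternatives.

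Levels of different genes were compared only per exonic length, as TPM. That length joins the exons of all transcripts of a gene and differs from the main transcript by unequal amounts. It was 7295 against 2678 bases for NR4A1, 3072 against 2085 for IER2 and 2991 against 2948 for ARC. For IER5 both were 4188 bases. The order of genes depends on this choice, and an order by main transcript was not computed. With DMSO the order was IER2 (66.8 ± 0.5) and IER5 (66.1 ± 2.7), then IER3 (11.97 ± 0.34) and C11orf96 (9.60 ± 1.05), then NR4A1 (6.16 ± 0.15), NR4A2 (5.78 ± 0.56) and IER5L (4.07 ± 0.91). ARC (2.76 ± 0.25), PHLDA1 (2.59 ± 0.25) and NR4A3 (0.93 ± 0.04) closed it (mean ± SD, n = 3). Neighbours that did not separate beyond their spread were IER2 and IER5, NR4A1 and NR4A2, and ARC and PHLDA1.

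With GSK-A1, C11orf96 reached 46.8 ± 6.6 TPM and passed IER3, at 16.4 ± 1.9 TPM, to rank 3rd. ARC reached 8.46 ± 0.84 TPM and ranked 6th instead of 8th. It came near NR4A1, at 8.76 ± 0.83 TPM, only on this length scale. IER2 (78.7 ± 2.5 TPM) and IER5 (75.9 ± 6.4 TPM) stayed the highest in TPM. The summed level of the 10 genes was 177 ± 4 TPM with DMSO and 250.1 ± 19.2 TPM with GSK-A1, and without ARC and C11orf96 it was 164 ± 3 and 195 ± 12 TPM. C11orf96 thus went from 5.42% ± 0.48 to 18.7% ± 1.2 of the sum.

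**Figure D4:**
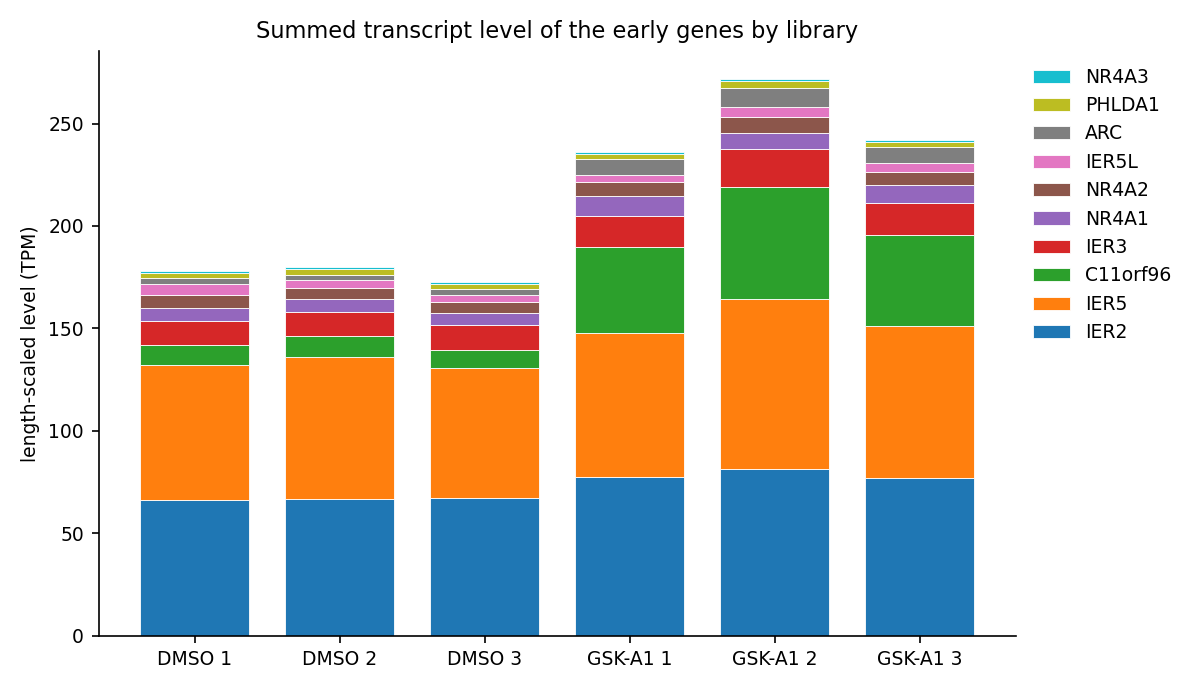
Stacked length-scaled levels (TPM, axis from 0) of the 10 genes in each library. The stacks reach 172 to 180 TPM (179.9 at most) with DMSO and 236 to 272 TPM with GSK-A1, and the C11orf96 segment grows most.

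The libraries of the GSK-A1 group did not order the genes alike. GSK-A1 replicate 2, the one that stood apart, was the highest of its group for 7 of the 10 genes and the lowest for 1, NR4A1. Over all tested genes it was the highest in 40.7% and the lowest in 40.6%. Its part in the results was not tested beyond leaving it out: ARC was then at 1.55, C11orf96 at 2.17, IER2 at 0.23, IER5 at 0.15, NR4A2 at 0.20 and NR4A3 at 0.22 on the log2 scale. NR4A2 was the gene that dropped below the threshold in that fit (edgeR adjusted p = 0.0795).

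The 3′ UTRs were read for the pentamer ATTTA, the core of AU-rich elements, in the main GENCODE 29 transcript. It was present in 8 of the 10 genes and in 69.99% of 13162 tested protein-coding genes. IER3 held 8.14 per kb, NR4A1 5.34 and C11orf96 4.92, against a median of 1.63 per kb over all those genes. IER2 and ARC held 0. The longer form TTATTTATT was in IER5, 3 times, and in PHLDA1, once, and in 8.73% of all.

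Windows of 30 bases from the 3′ UTR with the most pentamers are shown for the genes with the densest or longest runs, with ATTTA in capitals.

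IER3: taattaatATTTAtatgtATTTAtgtacgt
IER5: ttcctttATTTATTTATTTATTTAattata
NR4A1: cATTTAtatttgtgtattttcctggATTTA
PHLDA1: gtattttgATTTAtgattATTTAttagttt
C11orf96: tggctgaaggcATTTATTTAacgatctttt

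IER5 carried 4 overlapping pentamers in 1 run and C11orf96 carried 2. No mRNA stability was measured.

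Other early transcription factors were higher nearly throughout. Of 25 listed genes 24 were tested, and 21 rose and 0 fell by the edgeR fit (adjusted p under 0.05), beside 12.0% and 10.9% of all genes tested. At an unadjusted p under 0.05, and by DESeq2 or limma-voom, 0 were lower as well. Their median log2 fold change was 0.61. EGR1 rose from 11.2 ± 1.0 to 52.1 ± 2.9 CPM and KLF6, a zinc finger factor, from 41.4 ± 1.8 to 85.1 ± 3.4 CPM (SD, n = 3). ATF3 rose from 89.8 ± 1.7 to 158 ± 6 CPM, and the log2 fold change of FOS was 1.87 ± 0.08 (edgeR adjusted p = 1.65e-10). The 3 tested genes that did not pass were EGR2 (0.66), KLF10 (0.0035) and SRF (-0.02), named after their values were seen. This list too was written with earlier results of these data known.

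Genes for the factors that control early genes were read next. Of 31 listed, 30 were matched by symbol and tested, of which 11 rose and 3 fell (beside 12.0% higher and 10.9% lower of all genes tested), with a median log2 fold change of 0.05. The 3 that fell were RPS6KA4 (-0.25), CRTC1 (-0.23) and ELK1 (-0.19). The count of 14 was 9 when DMSO replicate 2 or 3, or GSK-A1 replicate 1, was left out. ELK4, an ETS partner of SRF, rose by 0.39 ± 0.04 on the log2 scale (edgeR adjusted p = 1.45e-05), to 77.5 ± 1.8 CPM. HDAC5, a class IIa deacetylase that represses MEF2, rose by 0.33 ± 0.04 (edgeR adjusted p = 5.54e-05), RPS6KA3, the kinase RSK2, by 0.24 ± 0.04 and MEF2C by 0.28 ± 0.06. CREM and SRF are in this list and the preceding one.

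The other nuclear receptors were called in both directions. Of 45 listed, 34 were tested, 7 rose and 3 fell (beside 12.0% and 10.9% of all genes), with a median log2 fold change of 0.01. The total of 10 was 3 without DMSO replicate 1, 6 without DMSO replicate 2, 4 without DMSO replicate 3 and 6 when GSK-A1 replicate 1 was left out. NR2F1, or COUP-TF1, fell from 78.0 ± 3.6 to 60.4 ± 2.5 CPM (-0.37 ± 0.05; edgeR adjusted p = 4.73e-05). VDR, the vitamin D receptor, rose by 0.31 ± 0.06, RORA by 0.29 ± 0.06 and HNF4G by 0.33 ± 0.08, the last not without DMSO replicate 1 (edgeR adjusted p = 0.0577). RXRA and RXRB, the partners with which NR4A1 and NR4A2 can form dimers, had log2 fold changes of -0.08 and -0.03 and did not pass.

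Among 28 genes listed for binding or decay of AU-rich mRNAs, 8 rose and 4 fell (beside 12.0% and 10.9% of all genes). The median log2 fold change of the 28 was 0.04. The 4 that fell were KHSRP (-0.10), HNRNPD (-0.12), TIA1 (-0.14) and CNOT3 (-0.18). The total of 12 was 4, 6 and 5 without DMSO replicates 1, 2 and 3, and 7 without GSK-A1 replicate 1. DCP1A, a decapping cofactor, rose from 45.9 ± 1.2 to 58.9 ± 1.7 CPM (0.36 ± 0.04; edgeR adjusted p = 3.53e-05). CNOT8 and CNOT6L, deadenylases of the CCR4-NOT complex, rose by 0.24 ± 0.04 and 0.27 ± 0.05, and RC3H2, an RNA-binding ubiquitin ligase, by 0.16 ± 0.04, though not without DMSO replicate 2 (edgeR adjusted p = 0.0618) or 3 (0.0556). ZFP36, or tristetraprolin, the early gene that feeds back on AU-rich mRNAs, stood at 2.39 and 3.05 CPM (0.37; edgeR adjusted p = 0.0608).

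Heat shock genes were read next. Whether handling of the cultures changed early genes was not tested. Of 15 listed, 14 were tested, and 2 rose and 2 fell, with a median log2 fold change of 0.05. Of all genes tested, 12.0% were called higher and 10.9% lower. The total of 4 was 2 without DMSO replicate 1 and 1 without DMSO replicate 2 or 3. SERPINH1, the collagen chaperone, had the smallest p-value (-0.38 ± 0.06; edgeR adjusted p = 2.09e-04). HSP90AA1 (0.14), CHORDC1 (0.16) and DNAJB1 (-0.11) were called in 10, 11 and 6 of the 14 alternatives. HSPA1B, an inducible HSP70 gene, stood at 159.9 ± 5.9 CPM with DMSO and 168 ± 5 CPM with GSK-A1 and did not pass.

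By the Euclidean distance of log2 profiles over the 6 libraries, the genes nearest to the median of the 10 were MYC, CLK1, HERC4, VCPIP1 and RNF149. Distances ran from 0.051 to 0.060. The members themselves lay further from their median, from 0.12 (IER2) to 2.28 (ARC) and 3.46 (C11orf96). MYC, itself an early gene, had a log2 fold change of 0.28 ± 0.03 (SE) and CLK1, a splicing kinase, 0.26 ± 0.05. These genes were picked for that closeness, so fold changes near the median follow from the selection and support nothing.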

How the data were processed

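RNA-seq libraries of 6 HEK293 cultures, 3 per group, were analysed from whole-number counts per gene, deposited by the authors without normalization. The submitters' processing notes name cutadapt 5.1, STAR 2.7.11b, featureCounts of Subread 2.1.1, DESeq2 1.38.0 and GRCh38.p13; the annotation and strand setting are not given in the sources used here. The library kit was stranded, per the labels' protocols. Where nothing says that cultures were separate beyond the replicate label, p-values measure the spread between these samples.

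Genes were kept by edgeR's filterByExpr (count 10, total 15), scaled by TMM and tested with edgeR 4.0.16 (quasi-likelihood, R 4.3.3), with Benjamini-Hochberg adjustment over 16754 genes. Standard errors are the log2 coefficient over the square root of F. TPM used GENCODE 29 exonic lengths, with the exons of all transcripts of a gene joined, known for 58126 genes. The members and lists were chosen with earlier results of these data known. Named genes were the 10 members, the paralogs, up to 4 called genes per list with the smallest p-values, and the 5 nearest profiles with a mean of at least 1 CPM (log2, prior count 2). Promoters are RefSeq's. Alternatives were other scalings, filters, DESeq2 1.42.0, limma-voom (limma 3.58.1), a replicate block and leaving out each library. The code was tested on simulated data. RXRA, RXRB, ZFP36, HSPA1B, KHSRP, HNRNPD, TIA1, CNOT3, RPS6KA4, CRTC1 and ELK1 were singled out after their values were seen. Libraries held 33040178 to 47777233 counts, and for genes with few counts the sampling of reads is a large part of the error.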

Additional observations from a re-analysis of the deposited data

How the results depend on the processing

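The count of all genes called, 3835, ranged from 2163 to 4890 when 1 library was left out and from 3097 (DESeq2) to 4127 (replicate block) otherwise. Of these calls 52.3% were higher, and 33.3% under upper-quartile factors, which shifted the median of all genes from -0.01 to -0.05. Members called higher, 7, ranged from 5 to 7 with 1 library left out and were 6 or 7 otherwise, with 7 under the replicate block. With 1 library left out, calls ranged from 18 to 21 for other early transcription factors (21) and from 9 to 16 for upstream regulators (14). They ranged from 3 to 12 for other nuclear receptors (10) and from 4 to 17 for genes of AU-rich mRNA binding or decay (12). For heat shock genes (4) the range was from 1 to 6. Fewer libraries were fitted in each case.

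The sign of PHLDA1 turned under upper-quartile factors (-0.011), and when 1 library was left out it ranged from -0.074 (GSK-A1 replicate 2) to 0.12, with -0.026 for DMSO replicate 1 and -0.00063 for DMSO replicate 3. That of IER5L ranged from -0.15 to 0.15 and was above 0 when DMSO replicate 1 (0.15) or GSK-A1 replicate 1 (0.090) was left out. The cause was not tested. Among values of single named genes under an alternative, 483 kept their direction and side of the threshold, 29 lost the call and 6 changed sign.

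Same-numbered libraries correlated by 0.011, 0.019 and 0.032 in their deviations from group means, all under 0.1. Libraries of different number ranged from -0.033 to 0.012. In 5 of 6 libraries the best correlation was with the same number. Whether same-numbered libraries share more than a number was not tested. The replicate block gave 4127 calls against 3835 without it, and a log2 fold change of 0.26 for NR4A2 (edgeR adjusted p = 0.0494). Depth limits the precision of NR4A3, which had 55 to 83 counts per library.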
